A study of Mus musculus with 15 samples.

Results

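MiR-23, miR-27 and miR-24 are encoded side by side in 2 paralogous clusters of the mouse genome, and their mature 3p products were followed across 15 small RNA libraries from mouse brain. The members are mmu-miR-23a-3p and mmu-miR-27a-3p of the first cluster, mmu-miR-23b-3p and mmu-miR-27b-3p of the second, and mmu-miR-24-3p, which both clusters encode. They were chosen by name, and all 5 were found among the 683 distinct mature miRNA names of the deposited tables. The groups were mice with ICH (intracerebral haemorrhage, bleeding within the brain) that received Buyang Huanwu decoction (BYHWD, a herbal mixture of Chinese medicine) by gavage at 6.19 g/kg daily, mice with ICH given distilled water, and sham-operated mice given distilled water, with 5 mice in each. All were labelled wild type, all were killed on day 14 and perfused with saline, and the ipsilateral basal ganglia were taken. Strain, sex, age and the way the bleed was induced are not stated in the labels. The extraction text names an exosome pellet, so whether tissue RNA or vesicle RNA was sequenced is not settled here.

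A primary transcript carrying such a cluster is cut into hairpins and then into mature strands, and a mature miRNA guides Argonaute proteins to messenger RNAs that pair with its seed, the bases near its 5′ end. Strands of 1 cluster are therefore made from a common precursor, while paralogs with the same seed have largely common predicted targets. The clusters are known for roles in endothelial cells and vessel growth and in lymphoid and myeloid cells. MiR-27 is also known for restraining lipid and adipocyte genes, miR-24 for repressing cell cycle genes, and miR-23 for repressing lamin B1 in mouse oligodendrocytes.

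The mature sequences show which members share a seed and how far paralogous reads can be told apart. They are taken from RefSeq on GRCm38.p6, where 4 of the 5 members were matched by name, and miR-128-3p, an abundant neuronal miRNA, is added for its overlap with miR-27. Capitals mark the seed, bases 2 to 8 from the 5′ end.
miR-23a-3p: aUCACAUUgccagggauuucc
miR-27a-3p: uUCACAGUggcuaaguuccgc
miR-27b-3p: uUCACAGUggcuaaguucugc
miR-24-3p: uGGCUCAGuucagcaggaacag
miR-128-3p: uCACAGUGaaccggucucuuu
MiR-27a-3p and miR-27b-3p had the same seed and were identical at 20 of 21 bases, with the single substitution C19U from miR-27a-3p to miR-27b-3p, counted from the 5′ end. MiR-23a-3p shared bases 2 to 6 with miR-27a-3p. Bases 2 to 9 of miR-27a-3p are bases 1 to 8 of miR-128-3p, so the seeds of these miRNAs overlap without being the same. MiR-24-3p had 1 sequence at both loci, and its reads cannot be divided between the clusters. The sources used here do not give how the authors assigned reads with a mismatch near the 3′ end, and exchange of reads between miR-27a-3p and miR-27b-3p was not tested.

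On GRCm38 the cluster of Mir23a, Mir27a and Mir24-2 lies on chromosome 8 at 84208518 to 84208921, plus strand, spanning 404 bases. The annotation places Mir24-2 in an exon of the noncoding gene Gm26532 and gives no host for the other hairpins there. The cluster of Mir23b, Mir27b and Mir24-1 lies on chromosome 13 at 63300484 to 63301275, plus strand, spanning 792 bases inside the protein-coding gene 2010111I01Rik. There Mir23b is intronic, while Mir27b and Mir24-1 overlap annotated exons of that gene. Fancc, on the other strand, spans this cluster in an intron. Hairpins of miR-3074 lie opposite Mir24-1 and Mir24-2.

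**Figure D1:**
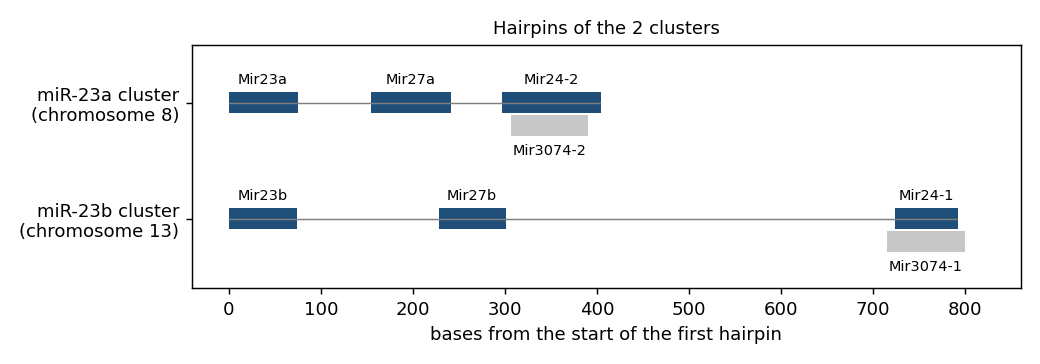
Hairpins of both clusters, drawn to scale along the x axis in bases from the start of the first hairpin, with miR-23a above miR-23b. Dark bars are hairpins on the plus strand and grey bars the miR-3074 hairpins on the minus strand. The chromosome 8 cluster spans 404 bases and the chromosome 13 cluster 792 bases.

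Totals per library ran from 4684611 to 9860236 counts with 1 row per name. Sham 4 and sham 5 stood apart, with TMM scaling factors of 0.667 and 0.721, against 0.954 to 1.19 in the other 13 libraries. MiR-219a-2-3p, an oligodendrocyte miRNA, stood at 23192 and 19415 CPM in them, and at 5756 to 9721 CPM in the other 13. The other 3 miRNAs of that list lay within or below the range of the other 13 libraries, and miR-338-3p had 301 CPM in sham 4 and 412 CPM in sham 5, below all other libraries. Fold changes and ratio differences that involve sham are given with and without these libraries. Of the markers checked for the brain label, miR-9-5p was the most abundant miRNA in the data and miR-124-3p averaged 4884 CPM. The liver miRNA miR-122-5p averaged 11.0 CPM, with 61.7 CPM in sham 1. The muscle miRNAs differed, with means of 3201 CPM for miR-1a-3p and 51.5 CPM for miR-133a-3p. MiR-1a-3p, listed as an absent control, was thus present, and its source was not tested. Here CPM are read counts scaled to a common depth on TMM-scaled library sizes. A miRNA is called changed at an adjusted p under 0.05 over all 652 miRNAs that passed the filter on low counts, as all 5 members did.

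Mmu-miR-27b-3p was the most abundant member and the 13th most abundant of the 652 miRNAs, at a mean of 23769 CPM over the 15 libraries. It made up 78.7 to 83.7% of the reads of the 5 members in each library. The next were mmu-miR-24-3p at 1927 CPM and mmu-miR-23b-3p at 1819 CPM, which changed places between libraries, with miR-24-3p higher in 7 of 15. Below them came mmu-miR-27a-3p at 1091 CPM and mmu-miR-23a-3p at 657 CPM, in this order in all 15 libraries. The 5 members held 1.53 to 3.71% of all counts. The 4 mature strands with a sequence are 21 or 22 bases long, and each read is 1 strand, so no level was divided by length. The efficiency with which each strand enters a library was not tested.

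The chromosome 13 members thus exceeded their chromosome 8 paralogs, but by different factors. MiR-27b-3p had 22.0 times the reads of miR-27a-3p, and miR-23b-3p had 2.79 times those of miR-23a-3p (geometric means over 15 libraries). Within a cluster miR-27a-3p had 1.66 times the reads of miR-23a-3p, and miR-27b-3p had 13.1 times those of miR-23b-3p. The other arms, usually the less abundant strands, followed another order. MiR-24-2-5p of the chromosome 8 cluster averaged 173 CPM, 5.04 times the reads of miR-24-1-5p of the chromosome 13 cluster, which averaged 34.1 CPM. MiR-27a-5p stood at 11.9 CPM and miR-27b-5p at 9.48 CPM, close to each other although their 3p strands were far apart. The 5p strand was 0.598 to 1.94% of the reads of the miR-27a hairpin, and 0.0266 to 0.0546% of those of the miR-27b hairpin. MiR-23b-5p (1.60 CPM) and miR-3074-5p (3.04 CPM) were near the lower end of the tested range.

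The comparison of BYHWD with ICH asks what the decoction altered in mice with a bleed. No member was called, and no miRNA in the whole table was (0% of 652, by edgeR). MiR-27b-3p had 21088, 26982, 21935, 23478 and 22548 CPM in BYHWD 1 to 5, against 25175, 25435, 28178, 26768 and 25385 CPM in ICH 1 to 5. BYHWD 2 lay among the ICH libraries and the other 4 below all of them. Its log2 fold change was -0.17 (SE 0.12, 95% interval -0.43 to 0.08, edgeR adjusted p = 0.942). MiR-23b-3p and miR-24-3p had similar values, -0.15 (SE 0.14, interval -0.43 to 0.14) and -0.16 (SE 0.16, interval -0.50 to 0.18). With a single library left out they ranged from -0.22 (without BYHWD 5) to -0.10 (without ICH 3) for miR-23b-3p and from -0.19 to -0.10 (without ICH 3) for miR-24-3p.

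The chromosome 8 members had nearly equal means in both groups. MiR-27a-3p averaged 1184 ± 152 CPM in BYHWD and 1183 ± 83.9 CPM in ICH (SD, n = 5 each), with a log2 interval of -0.30 to 0.30. MiR-23a-3p averaged 703 ± 125 CPM in BYHWD and 703 ± 64.0 CPM in ICH, with an interval of -0.33 to 0.33. The edgeR adjusted p was 0.942 for miR-23b-3p and miR-24-3p and 0.998 for both chromosome 8 members. At an unadjusted p under 0.05, edgeR counted 0 of 5 members and 31 of all 652 miRNAs (4.75%). DESeq2 and limma-voom called no miRNA either, and each had 0 members under that unadjusted level, with 4.45% of all miRNAs for DESeq2 and 4.29% for limma-voom. BYHWD and ICH libraries overlapped for all 5 members, where 0.613% of the miRNAs had no overlap. Fold changes were above 0 for 2 of 5 members and for 51.1% of all miRNAs. The median log2 fold change of the members was -0.15, beside 0.00 over all miRNAs.

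**Figure D2:**
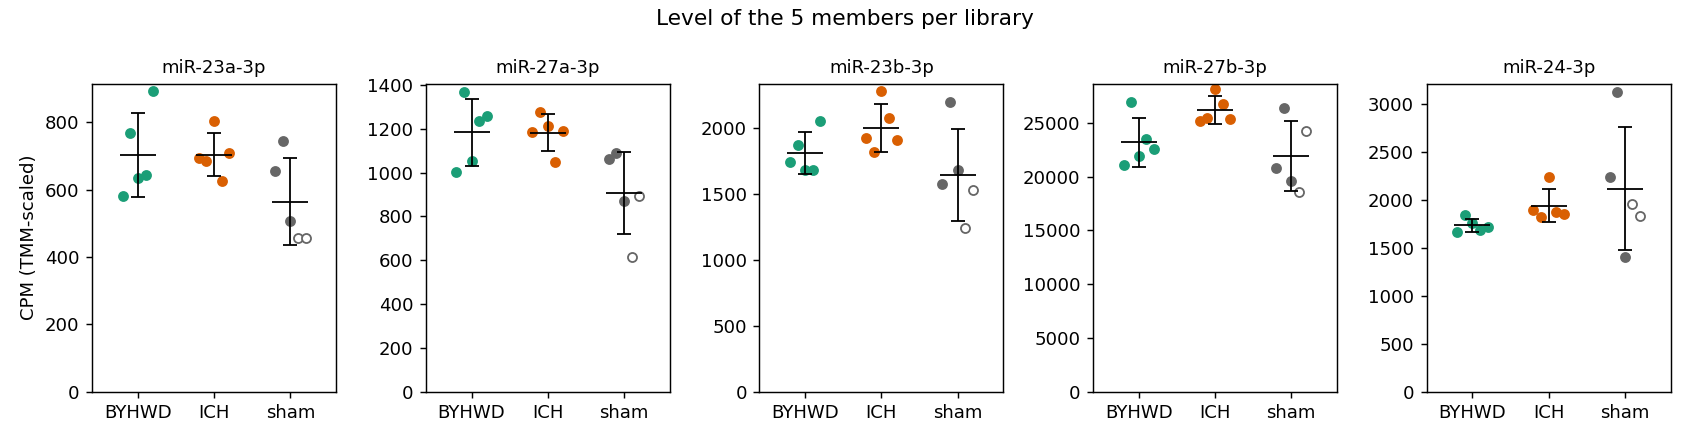
Level of each member in CPM (linear y axis from 0) for every BYHWD, ICH and sham library, with the mean and SD of each group. Open circles are sham 4 and sham 5. MiR-27a-3p runs from 617 to 1089 CPM in sham and from 1047 to 1277 CPM in ICH, and groups overlap in every panel.

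The comparison of ICH with sham asks what differs 14 days after the bleed. None of the members was called, where 0.767% of all miRNAs were. MiR-27a-3p had the smallest p. It stood at 1188, 1277, 1212, 1047 and 1191 CPM in ICH 1 to 5, against 1062, 1089, 872, 617 and 894 CPM in sham 1 to 5. ICH 4 fell within the sham range, and the other 4 ICH libraries lay above all sham libraries. The log2 fold change was 0.38 (SE 0.14, interval 0.08 to 0.69, edgeR adjusted p = 0.139), and 0.22 at an edgeR adjusted p of 0.379 without sham 4 and sham 5.

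MiR-23a-3p, from the same cluster, averaged 703 ± 64.0 CPM in ICH and 563 ± 129 CPM in sham (SD, n = 5 each). Its log2 fold change was 0.32 (edgeR adjusted p = 0.251, SE 0.16), and 0.14 without sham 4 and sham 5, which were its lowest libraries at 456 CPM each. MiR-23b-3p averaged 2003 ± 183 CPM in ICH and 1646 ± 350 CPM in sham, a log2 difference of 0.28 (edgeR adjusted p = 0.234, SE 0.14), and 0.13 without these libraries. MiR-27b-3p changed less when both were left out, and they lay on opposite sides of its sham mean. Its log2 fold change was 0.26 (edgeR adjusted p = 0.225, SE 0.12) with all libraries and 0.23 without sham 4 and sham 5. With a single library left out it ranged from 0.20 to 0.33. Sham 1 to sham 5 had 20817, 26357, 19562, 18609 and 24214 CPM, so that sham 2 lay within the ICH range given above.

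MiR-24-3p had the opposite sign, within its error. It stood at 1892, 1821, 2239, 1875 and 1854 CPM in ICH 1 to 5, against 2240, 3122, 1402, 1958 and 1833 CPM in sham 1 to 5. The sham libraries spread on both sides of the ICH libraries. The log2 fold change was -0.12 (edgeR adjusted p = 0.687, SE 0.16), and 0.06 without sham 2, its highest library. It was -0.23 without sham 4 and sham 5. In all, 4 of 5 members had a log2 fold change above 0, as did 47.7% of the 652 miRNAs, and the median was 0.28 for the members and -0.02 over all. At an unadjusted p under 0.05, edgeR counted 2 of 5 members (miR-27a-3p and miR-27b-3p), DESeq2 1 and limma-voom 4, beside 21% of all miRNAs by edgeR, 20.4% by DESeq2 and 18.1% by limma-voom. DESeq2 and limma-voom called none of the members after adjustment, where they called 7.36% and 1.07% of all miRNAs. ICH and sham libraries overlapped for all 5 members, where 3.99% of the miRNAs had no overlap.

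BYHWD was also set against sham, a comparison that shares its sham libraries with the one above. No member was called, where 2.3% of all miRNAs were. MiR-27a-3p stood at 1004, 1369, 1053, 1236 and 1257 CPM in BYHWD 1 to 5, against the sham values above. BYHWD 1 and BYHWD 3 fell within the sham range, and the other 3 lay above it. The log2 fold change was 0.38 (SE 0.14, interval 0.08 to 0.69, edgeR adjusted p = 0.129), and 0.23 without sham 4 and sham 5.

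For miR-23a-3p it was 0.32 (edgeR adjusted p = 0.253, SE 0.16), which was 0.14 without sham 4 and sham 5 and 0.18 without BYHWD 5, its highest library at 892 CPM. The chromosome 13 members had smaller values. MiR-23b-3p averaged 1808 ± 159 CPM in BYHWD and 1646 ± 350 CPM in sham, a log2 difference of 0.14 (edgeR adjusted p = 0.626, SE 0.14), which was -0.02 without sham 4 and sham 5. MiR-27b-3p averaged 23206 ± 2284 CPM in BYHWD and 21912 ± 3267 CPM in sham (log2 0.08, SE 0.12, edgeR adjusted p = 0.758), with a log2 value of 0.05 without sham 4 and sham 5, 0.0093 without sham 4, 0.16 without sham 2 and 0.22 with library totals as the scale. MiR-24-3p averaged 1733 ± 67.4 CPM in BYHWD and 2111 ± 641 CPM in sham (log2 -0.28, SE 0.16, edgeR adjusted p = 0.328), with -0.39 without sham 4 and sham 5 and -0.10 without sham 2. At an unadjusted p under 0.05, edgeR, DESeq2 and limma-voom each counted 1 of 5 members, beside 21.2%, 22.1% and 19.5% of all miRNAs in that order of tools. After adjustment DESeq2 and limma-voom called 0 members, where they called 7.98% and 1.69% of all miRNAs. BYHWD and sham libraries overlapped for all 5 members, where 3.83% of the miRNAs had no overlap. Fold changes were above 0 for 4 of 5 members and for 51.7% of all miRNAs, with medians of 0.14 for the members and 0.02 over all.

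With ICH and BYHWD averaged and set against sham, which adds no library to the comparisons above, edgeR called 0 of 5 members and 7.67% of all miRNAs. MiR-27a-3p came nearest to the threshold, with a log2 fold change of 0.38 (SE 0.13, interval 0.12 to 0.65, edgeR adjusted p = 0.0689). DESeq2 called it (log2 0.37, DESeq2 adjusted p = 0.0445), as it did 12.9% of all miRNAs, and edgeR called it without sham 2 (log2 0.46, edgeR adjusted p = 0.039). Without sham 4 and sham 5 its edgeR adjusted p was 0.329 and its log2 fold change 0.22. MiR-23a-3p had 0.32 (edgeR adjusted p = 0.154, SE 0.14), and 0.14 without sham 4 and sham 5. At an unadjusted p under 0.05 edgeR counted both chromosome 8 members, beside 25.2% of all miRNAs. Limma-voom called 0 members and 2.76% of all miRNAs. Sham libraries overlapped with the other 10 for all 5 members, where 2.15% of the miRNAs had no overlap, and 4 of 5 members had a fold change above 0, as did 48.9% of all miRNAs. MiR-23b-3p (0.21, SE 0.12), miR-27b-3p (0.17, SE 0.10) and miR-24-3p (-0.20, SE 0.14) had edgeR adjusted p-values from 0.293 to 0.4. They had 0.06, 0.14 and -0.31 without sham 4 and sham 5, and without sham 2 miR-24-3p had -0.02 and miR-23b-3p 0.34.

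**Figure D3:**
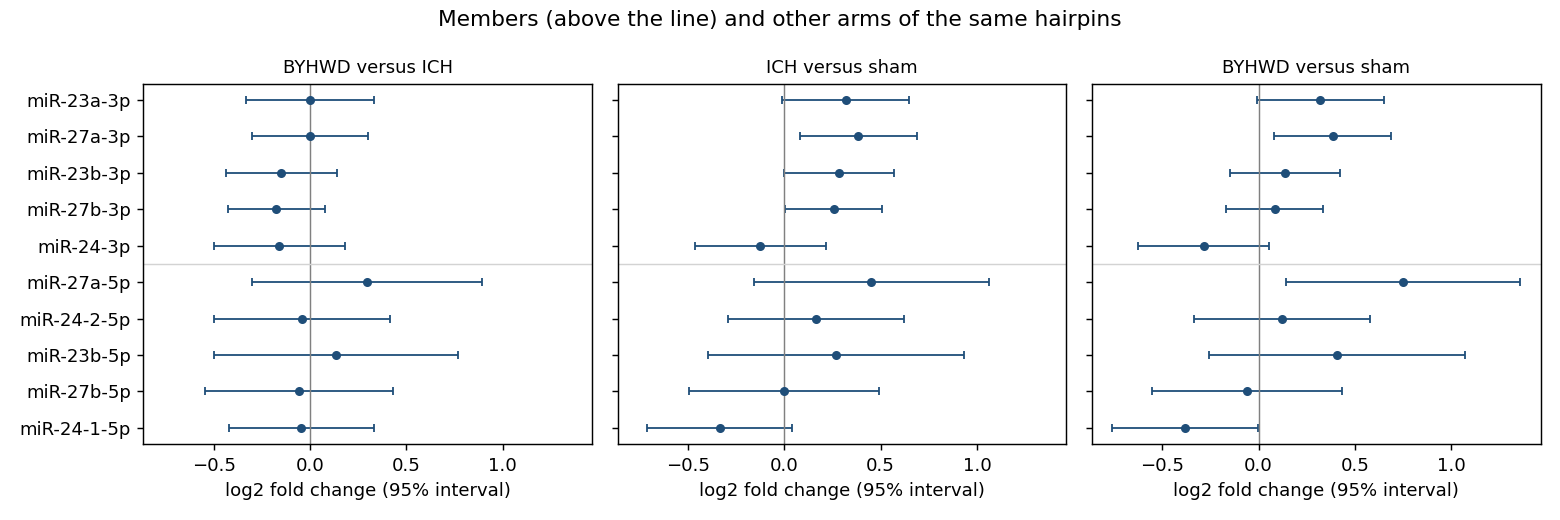
Log2 fold changes with 95% intervals (x axis) of the 5 members, above the grey line, and of 5 other arms of the same hairpins, below it, for BYHWD versus ICH, ICH versus sham and BYHWD versus sham. MiR-27a-3p has the highest value of the members against sham, 0.38 in both panels, and miR-24-3p is the member on the other side of 0, at -0.12 and -0.28.

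Of 9 listed other-arm and antisense products of these hairpins, 6 passed the filter and none was called in any comparison. MiR-27a-5p, the partner strand of miR-27a-3p, averaged 14.8 ± 5.16 CPM in BYHWD, 12.1 ± 4.28 CPM in ICH and 8.74 ± 2.77 CPM in sham (SD, n = 5 each). Its log2 fold change was 0.45 for ICH against sham (edgeR adjusted p = 0.392, SE 0.29) and 0.75 for BYHWD against sham (edgeR adjusted p = 0.139, SE 0.29), with 0.23 and 0.53 without sham 4 and sham 5. The partner strands of miR-24 had values of opposite sign. MiR-24-1-5p had -0.34 for ICH against sham (edgeR adjusted p = 0.296, SE 0.18) and -0.38 for BYHWD against sham (edgeR adjusted p = 0.231, SE 0.18). MiR-24-2-5p had 0.16 (edgeR adjusted p = 0.69, SE 0.22) and 0.12 (edgeR adjusted p = 0.823, SE 0.22) in the same comparisons. MiR-27b-5p lay near 0 in both, at 0.00 (SE 0.23) and -0.06 (SE 0.23). Without sham 4 and sham 5 the values for ICH and BYHWD against sham were -0.39 and -0.43 for miR-24-1-5p, 0.06 and 0.02 for miR-24-2-5p, and 0.02 and -0.04 for miR-27b-5p.

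Ratios of members within a library do not depend on how libraries are scaled, and 4 of them were compared between groups, with 12 exact two-sided permutation tests in all. With 5 against 5 the smallest p is 0.00794, so 1 test of the 12 cannot pass alone after adjustment. After Benjamini-Hochberg adjustment over the 12, none was under 0.05, and 2 were before adjustment. Both concerned miR-27a-3p over miR-27b-3p, the paralogs that differ at 1 base. The log2 ratio was -4.39, -4.30, -4.38, -4.25 and -4.16 in BYHWD 1 to 5, against -4.41, -4.32, -4.54, -4.68 and -4.41 in ICH 1 to 5. The 3 highest values were those of BYHWD 5, BYHWD 4 and BYHWD 2, and the groups overlapped. The difference in means was 0.17 (exact permutation p = 0.0397, adjusted 0.238).

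Against sham, at -4.29, -4.60, -4.49, -4.91 and -4.76 in sham 1 to 5, the BYHWD ratio was higher by 0.31 (exact permutation p = 0.0317, adjusted 0.238), and by 0.16 without sham 4 and sham 5, its lowest libraries. For ICH against sham the difference was 0.14 (exact permutation p = 0.294, adjusted 0.705), and -0.01 without those libraries. As a share of the reads of both paralogs, miR-27a-3p held 4.85 ± 0.307% in BYHWD, 4.33 ± 0.393% in ICH and 3.97 ± 0.635% in sham (SD, n = 5 each).

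MiR-23a-3p over miR-23b-3p had mean log2 ratios of -1.37 ± 0.143 in BYHWD, -1.51 ± 0.128 in ICH and -1.55 ± 0.200 in sham. The adjusted exact permutation p was 0.452 for BYHWD against ICH and for BYHWD against sham, and 0.771 for ICH against sham. The difference from sham was 0.18 for BYHWD and 0.04 for ICH, and 0.15 and 0.01 without sham 4 and sham 5. Within a cluster no ratio passed either before or after adjustment. MiR-23a-3p over miR-27a-3p averaged -0.76 ± 0.167, -0.75 ± 0.109 and -0.69 ± 0.207 in BYHWD, ICH and sham, and miR-23b-3p over miR-27b-3p averaged -3.68 ± 0.160, -3.71 ± 0.0665 and -3.75 ± 0.195. These 6 tests gave adjusted exact permutation p-values of 0.771 to 0.952. With sham 4 and sham 5 left out, the differences of BYHWD and ICH from sham were -0.08 and -0.08 for the first ratio, and -0.07 and -0.10 for the second, where with all libraries the second had 0.07 and 0.04.

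**Figure D4:**
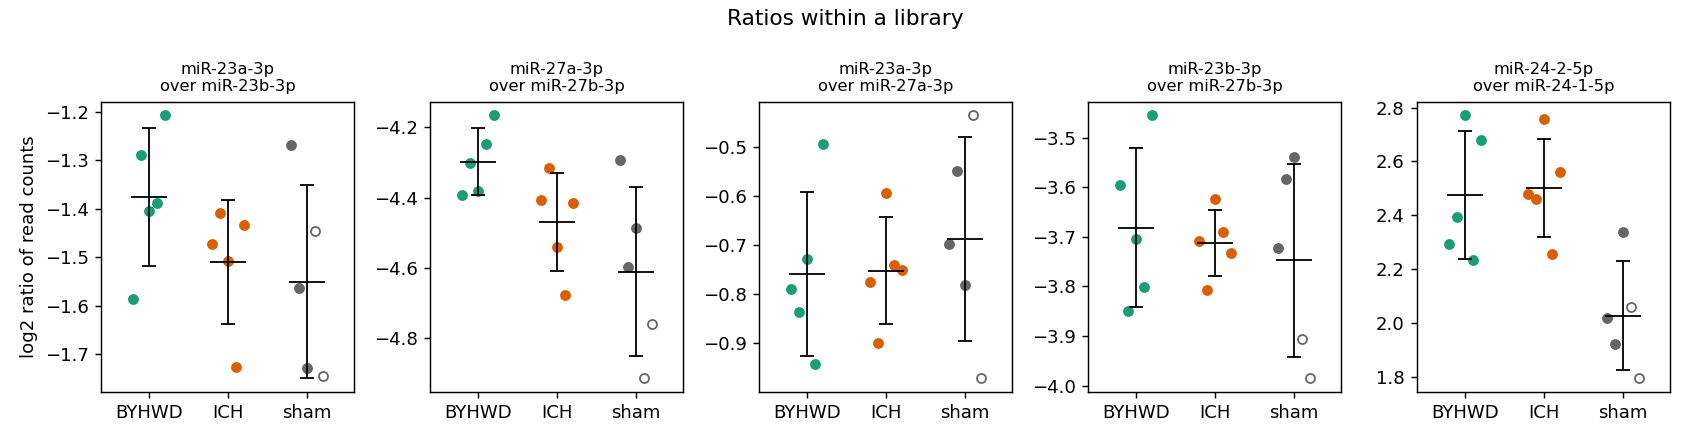
Log2 ratios of read counts (y axis, its own range in each panel) for 4 pairs of members and for miR-24-2-5p over miR-24-1-5p, in every BYHWD, ICH and sham library, with the mean and SD. Open circles are sham 4 and sham 5. For miR-27a-3p over miR-27b-3p the means are -4.30, -4.47 and -4.61 in BYHWD, ICH and sham, and for miR-24-2-5p over miR-24-1-5p they are 2.47, 2.50 and 2.03.

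The strands that tell the miR-24 loci apart were set against each other after their values had been seen, so their ratio is described with no test. The log2 ratio of miR-24-2-5p to miR-24-1-5p was 2.29, 2.39, 2.77, 2.23 and 2.68 in BYHWD 1 to 5, and 2.48, 2.46, 2.76, 2.26 and 2.56 in ICH 1 to 5, against 2.02, 1.92, 2.34, 2.06 and 1.79 in sham 1 to 5. Sham 3 lay within the range of both other groups, and the other 4 sham libraries lay below every BYHWD and ICH library. MiR-24-2-5p held 84.7 ± 2.11% of the reads of both strands in BYHWD, 84.9 ± 1.60% in ICH and 80.2 ± 2.17% in sham (SD, n = 5 each). In sham 1 to 3 alone it held 80.9 ± 2.27%. The reads behind this share were 6323 and 1120 in BYHWD, 7425 and 1286 in ICH, and 5734 and 1390 in sham for miR-24-2-5p and miR-24-1-5p.

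How tightly members moved together was described by the SD of their log2 difference. The SD of the log2 difference over the 15 libraries was 0.142 for miR-23b-3p and miR-27b-3p and 0.157 for miR-23a-3p and miR-27a-3p. For the paralogs it was 0.167 for miR-23a-3p and miR-23b-3p and 0.205 for miR-27a-3p and miR-27b-3p. Without sham 4 and sham 5 the first pair had 0.114, the second 0.129, the third 0.162 and the last 0.144. The pairs that are neither of 1 cluster nor paralogs had 0.198 (miR-27a-3p and miR-23b-3p) and 0.225 (miR-23a-3p and miR-27b-3p). With all 15 libraries the pairs of 1 cluster were thus the tightest, while the miR-27 paralogs lay between the unrelated pairs. Without sham 4 and sham 5 the unrelated pairs had 0.198 and 0.173. The order was then pairs of 1 cluster, paralogs and unrelated pairs, from tightest to loosest. Whether this order exceeds the spread was not tested. Pairs with miR-24-3p were looser, from 0.248 to 0.372, and from 0.238 to 0.302 without these libraries. These values are descriptions of 15 libraries that share their normalization.

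Among the 415 other miRNAs that averaged 10 CPM or more, the pattern most like the mean log2 level of the members was that of miR-15b-5p (Pearson r = 0.83, Spearman rho = 0.78 over 15 libraries). It was followed by miR-93-5p (r = 0.80, rho = 0.72), miR-142a-3p of blood-forming lineages (r = 0.77, rho = 0.76), miR-339-5p (r = 0.75, rho = 0.71) and miR-199a-5p of mesenchymal cells (r = 0.69, rho = 0.70). Being the highest of 415, these are given with no test, and the libraries share their scaling. Without sham 4 and sham 5 the r values were 0.71, 0.68, 0.64, 0.63 and 0.55 in the same order over 13 libraries. These miRNAs then ranked 3, 8, 13, 15 and 28 of 415. Only miR-15b-5p would still be among the 5 highest, so the choice of the others rests on sham 4 and sham 5.

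MiRNAs with a related seed were measured as well. MiR-128-3p, which overlaps the miR-27 seed, was nearly as abundant as miR-27b-3p, at 18803 ± 3942 CPM in BYHWD, 20842 ± 3696 CPM in ICH and 17579 ± 3478 CPM in sham (SD, n = 5 each). It was not called in BYHWD against ICH (log2 -0.15, SE 0.18, edgeR adjusted p = 0.976) or in ICH against sham (log2 0.25, SE 0.18, edgeR adjusted p = 0.453), where it had 0.16 without sham 4 and sham 5. MiR-323-3p, whose first bases overlap the miR-23 seed, had -0.01 (SE 0.13) and 0.04 (SE 0.13) in these comparisons, the second being 0.07 without sham 4 and sham 5. The other seed relatives, miR-216a-3p, miR-673-5p and miR-7080-3p, averaged 2.00 to 19.6 CPM and were not called.

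In bulk libraries fewer cells of a type and less of a miRNA per cell cannot be told apart, so markers of cell types are given beside these results. The endothelial miRNAs miR-126a-3p and miR-126a-5p summed to 9688 to 14011 CPM in BYHWD, 10383 to 12860 CPM in ICH and 10374 to 15054 CPM in sham, and 0 of 2 were called in any comparison. The 4 mural miRNAs (the miR-143 and miR-145a strands) had no call either, nor had the erythroid, oligodendrocyte, neuronal, and choroid plexus and epithelial lists. The last list summed to 5870 to 15157 CPM in BYHWD, 1941 to 17370 in ICH and 1764 to 18114 in sham. MiR-1298-5p of this list was highest in sham 2 (15218 CPM), ICH 3 (14196 CPM) and BYHWD 3 (12549 CPM). Sham 2 and ICH 3, but not BYHWD 3, were also the highest libraries of miR-24-3p in their groups. A link was not tested. Of 7 myeloid and leukocyte miRNAs, 2 were called higher in ICH than in sham, where 0.767% of all miRNAs were called, and 2 higher in BYHWD than in sham, where 2.3% were. These were miR-155-5p and miR-142a-3p in both cases. MiR-155-5p averaged 52.0 ± 15.4 CPM in BYHWD, 65.0 ± 13.9 CPM in ICH and 15.6 ± 4.68 CPM in sham (SD, n = 5 each), and miR-142a-3p averaged 52.6 ± 21.7 CPM in BYHWD, 57.6 ± 16.3 CPM in ICH and 17.7 ± 5.13 CPM in sham. The summed level of the list was 3178 to 5073 CPM in BYHWD, 4881 to 6984 CPM in ICH and 1758 to 5808 CPM in sham. In sham 1 to 3 alone it was 1758 to 2291 CPM, below every BYHWD and ICH library. Sham 4 had 4128 CPM and sham 5 had 5808 CPM. Most of the sum was miR-146a-5p, which was not called. It averaged 3669 ± 674 CPM in BYHWD, 5113 ± 741 CPM in ICH and 2830 ± 1721 CPM in sham. Sham 1 to 5 had 1372, 1941, 1633, 3824 and 5382 CPM of it. Of 4 tested mesenchymal miRNAs, 0 were called in ICH and 2 in BYHWD against sham, with sums of 269 to 548 CPM in BYHWD, 193 to 526 CPM in ICH and 155 to 241 CPM in sham. With ICH and BYHWD averaged against sham, 4 of 7 myeloid and 4 of 4 mesenchymal miRNAs were called higher, where 7.67% of all miRNAs were called. With sham 4 and sham 5 left out, the myeloid counts were 4 of 7 for ICH, 2 of 7 for BYHWD and 4 of 7 for the average, and the mesenchymal counts were 0 of 4 in each, where 1.06%, 1.06% and 1.82% of all miRNAs were called. The part of these cells in the values of the members was not tested.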

How the data were processed

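The deposited values are whole-number read counts per mature miRNA, not normalized by the authors. Per the submitters' processing notes cutadapt, Bowtie and edgeR were used, with hg38 named as the build although the miRNA names are those of mouse. Versions and the treatment of reads with several matches are not given in the sources used here. In 15 of 15 tables the first count is the library number, and each count stands 1 row below its name, so names were moved by 1 row. Of 245 successive row pairs with the same name, 216 then held counts that differed by at most 0.1 in log2 units, and 149 did as printed. After the move both rows of miR-24-3p held nearly equal counts, 217115 and 217111 in all, and where a name had several rows the one with the most counts was used. The counts of miR-23b-3p, miR-23a-3p, miR-27b-3p and miR-27a-3p stand beside miR-23a-3p, miR-27b-3p, miR-27a-3p and miR-26b-5p in the tables.

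All 15 libraries were fitted together with edgeR 4.0.16 in R 4.3.3 (quasi-likelihood F-test, robust, TMM scaling, filterByExpr, no covariate), with Benjamini-Hochberg adjustment over all tested miRNAs. DESeq2 1.42.0 and limma-voom (limma 3.58.1) were alternatives. An SE is the fold change divided by the root of its F statistic. Ratios were compared by exact permutation over libraries with scipy 1.17.1, where 5 against 5 allows a smallest p of 0.00794. The fit was tested on simulated counts with 200 of 652 miRNAs changed and 1 common mean profile for all libraries, without the differences of sham 4 and sham 5. It recovered 84.3 to 84.7% of 2-fold changes. Of 1.5-fold changes it recovered 37% in BYHWD versus ICH, 43.1% in ICH versus sham and 50.5% in BYHWD versus sham. In the data edgeR called 0%, 0.767% and 2.3% of miRNAs in these comparisons. With many changed miRNAs the adjusted threshold is easier to pass, so recovery in the data can be lower than simulated. Smaller changes, such as those of the members, were not simulated. The miRNAs named are the members, the other strands of their hairpins, miRNAs of related seed, the 5 with the most similar pattern, and cell type markers where a result touches them. The members and lists were chosen with earlier results of these data known. The values of other strands, seed relatives and marker lists without sham 4 and sham 5 were added after seeing the data.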

Additional observations from a re-analysis of the deposited data

Results flagged for a closer look

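In 1 of 27 groups of 5 libraries examined (5 members and 4 ratios in 3 groups), a library lay far from the others. ICH 3 had 2239 CPM of miR-24-3p, where the other 4 ICH libraries had 1821 to 1892 CPM. Chance gives about 1 in 20 such groups.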

How the results depend on the processing

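Over 20 or 24 alternatives per comparison, 400 of 420 fold changes of members kept their sign and their side of the threshold. No member was called in any alternative for BYHWD versus ICH, ICH versus sham or BYHWD versus sham. For ICH and BYHWD versus sham the count of called members was 1 with the DESeq2 test (miR-27a-3p, adjusted p = 0.0445) and 0 to 1 when single libraries were left out, with 1 without sham 2. The sign turned for values near 0 in BYHWD versus ICH. MiR-23a-3p had -0.014 with limma-voom, -0.012 without the low-count filter, -0.000755 with repeated rows summed, -0.0060 with the replicate block and -0.12 to 0.062 with a library left out. MiR-27a-3p had -0.0059 with limma-voom, -0.013 without the filter and -0.056 to 0.055 with a library left out. MiR-23b-3p in BYHWD versus sham had -0.017 without sham 4 and sham 5, and miR-24-3p in ICH versus sham ranged from -0.24 to 0.061 with a library left out. No ratio passed under any alternative. Leaving out libraries raises the smallest possible p above 0.00794 in the comparisons affected. No single ratio could pass on its own with all 15 libraries either, and the limit is stricter in those comparisons. Those alternatives therefore say little about the ratios. Without sham 4 and sham 5 the difference in miR-27a-3p over miR-27b-3p was -0.010 for ICH versus sham, and that in miR-23b-3p over miR-27b-3p was -0.096 for ICH and -0.066 for BYHWD versus sham. With a library left out, miR-23a-3p over miR-27a-3p ranged from -0.072 to 0.040 and miR-23b-3p over miR-27b-3p from -0.026 to 0.073 for BYHWD versus ICH, and miR-23a-3p over miR-23b-3p from -0.0087 to 0.11 and miR-23b-3p over miR-27b-3p from -0.024 to 0.087 for ICH versus sham. The causes were not tested. Counts of all called miRNAs depended more on the setting, from 4 to 48 for ICH versus sham (5 in the fit reported), 2 to 54 for BYHWD versus sham (15) and 5 to 93 for ICH and BYHWD versus sham (50). Scaling by library totals gave the median of all miRNAs as 0.15 for BYHWD versus sham (0.02 with TMM), and miR-27a-3p then had 0.48. Same-numbered mice are not linked by the labels, and their deviations correlated by -0.43 to 0.22, and between no 2 groups did every library correlate best with its own number. With the replicate block edgeR called 9 miRNAs for BYHWD versus sham and 5 for ICH and BYHWD versus sham, with 0 members in each. Paired by number, 5 mice allow a smallest p of 0.0625 for a ratio, so that test cannot pass.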
